A study of Homo sapiens with 2 samples.

Results

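The noncoding snoRNA host genes followed here are 10 of the 14914 features listed for RNA recovered with CSTF2 and for input RNA of HUH7 cells: GAS5, SNHG1, SNHG5, SNHG6, SNHG7, SNHG8, SNHG12, SNHG16, SNHG17 and SNHG22. They were taken by symbol, with no cutoff on their values, though earlier results of these data were known when they were chosen. HUH7 is an established line of human hepatocellular carcinoma cells. The study made 1 RNA immunoprecipitation library with CSTF2 (the IP) and 1 library of input RNA (the Input), to find RNAs that CSTF2 may bind, and the labels give no treatment or genotype for either. CSTF2 belongs to the cleavage stimulation factor and touches the RNA downstream of the site where the 3′ end of a polymerase II transcript is cut.

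Small nucleolar RNAs (snoRNAs) guide the modification of ribosomal and spliceosomal RNAs. Most human snoRNAs are cut out of the introns of a host transcript: box C/D snoRNAs guide 2′-O-methylation and box H/ACA snoRNAs guide pseudouridylation, while small Cajal body RNAs (scaRNAs) act on spliceosomal RNAs. The hosts followed here make a spliced, capped and polyadenylated RNA that codes for no conserved protein. Several of them, GAS5 among these, are known to be degraded by nonsense-mediated decay in growing cells, and several start with the pyrimidine tract (TOP) of ribosomal protein mRNAs.

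The cargo differed between the hosts. RefSeq (GRCh38.p14) places 37 snoRNA and scaRNA genes inside the 10 hosts, 25 of box C/D type, 11 of box H/ACA type and 1 scaRNA. GAS5 holds 11 of them and SNHG1 holds 8, whereas SNHG6 holds SNORD87 alone, SNHG8 holds SNORA24 alone and SNHG22 holds SCARNA17 alone. SNHG5 carries the pair SNORD50A and SNORD50B, SNHG7 the pair SNORA17A and SNORA17B, SNHG16 the SNORD1 group, SNHG17 the SNORA71 group, and SNHG12 SNORD99 with 3 box H/ACA RNAs.

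Because CSTF2 acts at polyadenylated 3′ ends, the last 50 bases are shown for 6 hosts of high, middle and low ratio. They are taken from GENCODE release 29 on GRCh38, with the poly(A) signals AATAAA and ATTAAA in capitals and in DNA letters. For each gene the transcript was used whose end most annotated transcripts share.
SNHG17: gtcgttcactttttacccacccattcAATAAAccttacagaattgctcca
SNHG12: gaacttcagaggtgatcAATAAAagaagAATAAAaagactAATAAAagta
SNHG1: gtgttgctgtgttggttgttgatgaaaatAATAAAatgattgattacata
SNHG8: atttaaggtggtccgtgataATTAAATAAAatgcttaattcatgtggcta
SNHG5: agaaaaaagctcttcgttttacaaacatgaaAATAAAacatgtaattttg
SNHG22: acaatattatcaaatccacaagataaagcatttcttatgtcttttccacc
These ends lie at chr20:38420588-38420637 (minus strand), chr1:28578538-28578587 (minus), chr11:62851988-62852037 (minus), chr4:118279774-118279823 (plus), chr6:85677084-85677133 (minus) and chr18:49851010-49851059 (plus), in the order shown. Only the transcript's own strand was searched, and the signals may overlap, as they do in SNHG8. Either signal was found in 7 of the 10 members and in 72.0% of 12738 annotated genes whose name is among the listed features. The shares were 45.9% of 15003 long noncoding genes and 71.3% of 19940 protein-coding genes of the same annotation. The ends without one were those of SNHG6, SNHG7 and SNHG22, and each of these is the end of 1 annotated transcript, as is that of SNHG16, which holds AATAAA.

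The start of the transcript was compared as well, because TOP starts mark ribosomal protein mRNAs. A C at the RefSeq start followed by at least 3 further C or T bases was found in 3 of the 9 members with an entry, in 57.6% of 85 ribosomal protein genes and in 5.45% of all 35097 starts. The first 30 bases of these 3 are given with the tract in capitals.
SNHG12: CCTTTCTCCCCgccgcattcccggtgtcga
SNHG5: CTTTTacgtcggccttcgcgagcgtctggg
SNHG7: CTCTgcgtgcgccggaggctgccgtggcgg
They lie at chr1:28581844-28581873, chr6:85678704-85678733 and chr9:136728155-136728184, all on the minus strand of GRCh38.p14. The 3 hosts fell on both sides of the Input level in the IP, as given below. GAS5 has an A at its RefSeq start and so did not count. The RefSeq starts of GAS5 and SNHG12 lie away from the ends of their GENCODE spans. Starts used in these cells were not measured, so the rule cannot tell which hosts have a TOP start there.

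Assigned reads numbered 3220045 for the IP and 9517885 for the Input. All 12 hepatocyte markers examined had values in both libraries, with summed levels of 755 RPKM (IP) and 867 RPKM (Input). Of 11 markers of blood, stromal and endothelial cells, 4 (LYZ, LUM, COL1A2 and CD68) had a row, with a summed level of 10.6 RPKM in each library. RPKM scales reads by exon length and by library depth. The exon length mostly joined the exons of all annotated transcripts, so levels of different genes compare only roughly. With 1 library of each kind there is no replicate error and no test. Unless named otherwise, intervals are exact 95% intervals and cover counting error only. The libraries were amplified by PCR and carry no stated molecular identifiers, so that reads need not stand for separate molecules.

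The levels of the 10 hosts ran from 1.45 RPKM (GAS5) to 109.8 RPKM (SNHG6) in the Input, with a median of 3.57 RPKM, and from 1.08 RPKM (SNHG22) to 31.6 RPKM (SNHG6) in the IP, with a median of 3.41 RPKM. SNHG6 and SNHG8 stood above 10 RPKM in both libraries and the other 8 below it in both. The spread from the lowest to the highest member was 75.9-fold in the Input and 29.3-fold in the IP. SNHG6 gave 1303 of the 2354 Input reads of the group, 55.4% (95% Wilson interval 53.3 to 57.4), and 127 of its 470 IP reads, 27.0% (23.2 to 31.2).

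**Figure D1:**
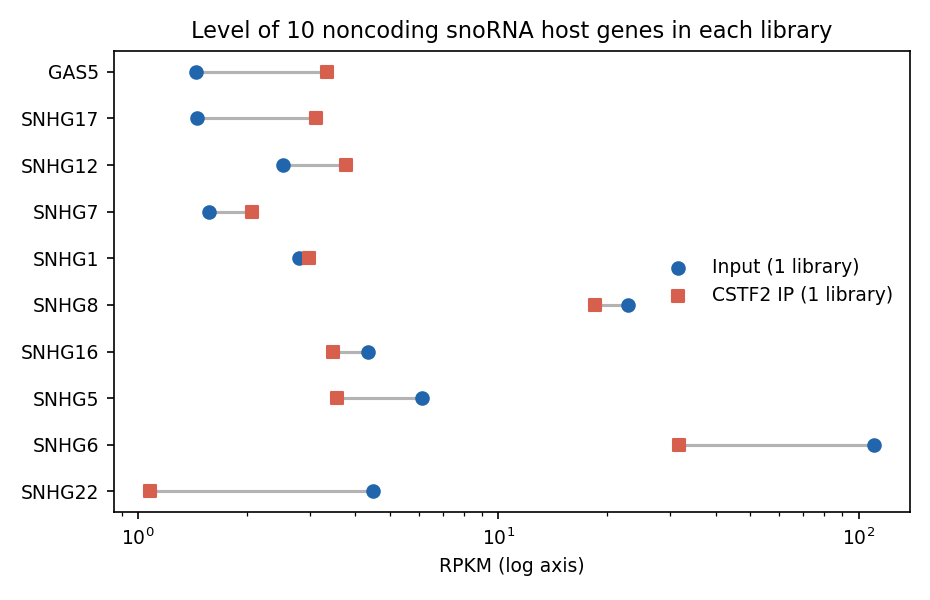
RPKM (log axis) of each of the 10 host genes in the Input library (circles) and the IP library (squares), 1 library each, with genes ordered by their ratio. SNHG6 and SNHG8 sit to the right of the other 8 in both libraries, and the IP lies to the right of the Input for the 5 genes at the top.

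Summed over the 10 hosts, the reads relative to library depth were 1.69-fold lower in the IP (interval 1.53 to 1.87). Without SNHG6 the sum of the other 9 was 1.04-fold lower (0.917 to 1.17), an interval that includes no difference relative to library depth. On the scale log2((IP + 1)/(Input + 1)) of RPKM, whose pseudocount of 1 RPKM understates the change of low genes, 2 of the 10 members were at least 2-fold lower, 0 at least 2-fold higher and 8 within 2-fold. All 10 members passed the filter, a mean of 1 RPKM or more, and among the 9880 features that did so 6.83% were lower and 9.88% higher by that rule. The median log2 ratio was -0.10 for the members and 0.17 for the 9880 features, and 4 members lay above that median and 6 below it. As a ratio that median is 1.13, above the interval of the 9-member sum, which as a ratio runs from 0.851 to 1.09. The counting interval of the RPKM ratio lay above 1 for 3 members and below 1 for 3, beside 36.1% and 20.1% of the 9880 features.

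SNHG6 was the most abundant member and among the lowest by ratio. It is annotated as a processed transcript on chromosome 8 (66921684 to 66926398, minus strand), with 1247 bp of exon. It had 109.8 RPKM (1303 reads) in the Input and 31.6 RPKM (127 reads) in the IP, a level 3.47-fold lower (2.89 to 4.20). On the log2 scale its value was -1.76, and 2.01% of the 9880 features were lower. The exons of the protein-coding gene MCMDC2 overlap it by 365 bp on the other strand. MCMDC2 was listed with 13 IP reads and 114 Input reads, which equal 10.2% and 8.75% of the reads of SNHG6. These shares limit what could be shared only if overlapping reads were credited to both genes, which was not tested.

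SNHG22 had the lowest ratio on the fewest IP reads. This host of SCARNA17 lies on chromosome 18 (49814023 to 49851059, plus strand) and has 2593 bp of exon. It had 4.50 RPKM (111 reads) in the Input and 1.08 RPKM (9 reads) in the IP, 4.17-fold lower (2.12 to 9.36), with a log2 value of -1.40. Its call at 2-fold was lost with a pseudocount of 5 RPKM (-0.64). It was also lost when the reads of SCARNA17, which lies in one of its exons, were taken away (-0.73), although the RPKM ratio without a pseudocount was then still 3.50-fold lower (1.09 to 17.9), on 3 IP reads and 31 Input reads.

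SNHG5, the host of the SNORD50 pair, lies on chromosome 6 (85660950 to 85678748, minus strand). It had 6.13 RPKM (163 reads) in the Input and 3.56 RPKM (32 reads) in the IP, 1.72-fold lower (1.17 to 2.60), which was within 2-fold on the pseudocount scale (-0.65). These 3 members were the ones whose intervals lay below 1.

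GAS5 and SNHG17 stood at the other end. GAS5, named for its build-up in growth-arrested cells, lies on chromosome 1 (173863900 to 173868882, minus strand) with 3631 bp of exon. It had 1.45 RPKM (50 reads) in the Input, the lowest Input level of the group, and 3.34 RPKM (39 reads) in the IP, a ratio of 2.31 (1.48 to 3.58). SNHG17, the host of the SNORA71 group on chromosome 20 (38420588 to 38435353, minus strand), had 1.46 RPKM (58 reads) in the Input and 3.12 RPKM (42 reads) in the IP, a ratio of 2.14 (1.40 to 3.24). On the pseudocount scale both were within 2-fold, at 0.83 and 0.75, and 84.7% and 81.4% of the 9880 features were lower than these. With a pseudocount of 0.1 RPKM they were past 2-fold, at 1.15 and 1.05. SNHG12 (chromosome 1, 28578538 to 28583132, minus strand) had 2.52 RPKM (81 reads) in the Input and 3.77 RPKM (41 reads) in the IP, a ratio of 1.496 (1.002 to 2.20), so that its interval only just lay above 1.

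The other 4 hosts had intervals that include 1. SNHG7, the host of the SNORA17 pair (chromosome 9, 136721366 to 136728184, minus strand), had 1.57 RPKM (65 reads) in the Input and 2.07 RPKM (29 reads) in the IP, a ratio of 1.32 (0.821 to 2.07). SNHG1, a host of box C/D snoRNAs on chromosome 11 (62851988 to 62855914, minus strand), had 2.80 RPKM (100 reads) and 2.98 RPKM (36 reads), a ratio of 1.06 (0.706 to 1.57). SNHG8, the second highest member by RPKM (chromosome 4, 118278709 to 118279823, plus strand), had 22.9 RPKM (201 reads) and 18.5 RPKM (55 reads), 1.24-fold lower in the IP (0.913 to 1.70). SNHG16, the host of the SNORD1 group (chromosome 17, 76557766 to 76565348, plus strand), had 4.35 RPKM (222 reads) and 3.48 RPKM (60 reads), 1.25-fold lower in the IP (0.937 to 1.69). Relative to library depth, the counts did not separate these 4 hosts from the Input. For SNHG8 and SNHG16 this rests on the scaling, since both intervals lie below the median ratio of all features, 1.13. Exons of protein-coding genes on the other strand overlap SNHG7 (FAM69B, 1094 bp), SNHG16 (AC015802.6, 1639 bp), SNHG22 (MYO5B, 229 bp) and SNHG12 (TRNAU1AP, 8 bp), and their part in these values was not tested.

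**Figure D2:**
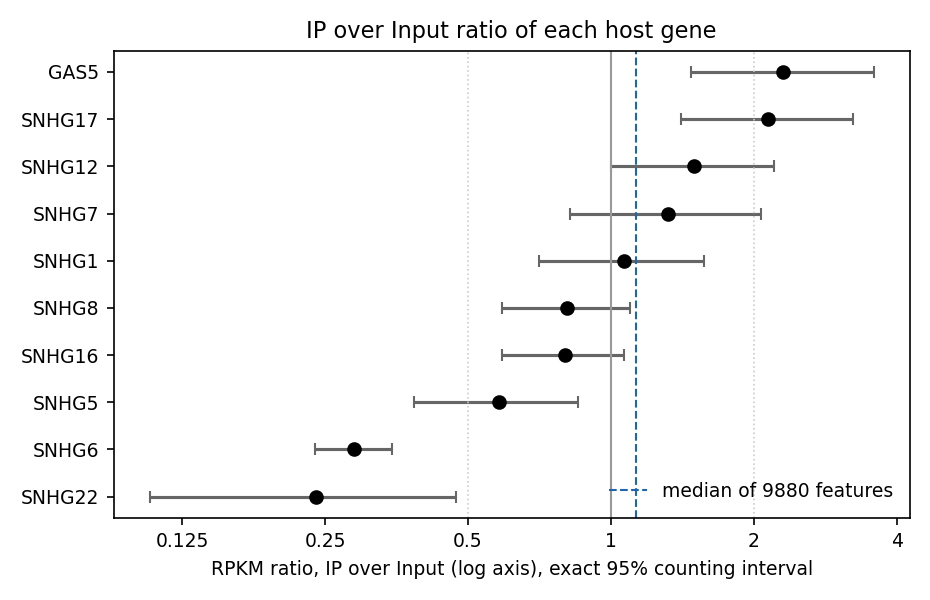
Ratio of RPKM in the IP to RPKM in the Input (log axis) for each host, with exact 95% counting intervals. The solid line marks 1, the dotted lines 2-fold either way and the dashed line the median of the 9880 features, taken from the pseudocount scale. The intervals of GAS5 and SNHG17 lie wholly to the right of the dashed line and those of SNHG8, SNHG16, SNHG5, SNHG6 and SNHG22 wholly to its left.

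From the highest ratio to the lowest the order was GAS5, SNHG17, SNHG12, SNHG7, SNHG1, SNHG8, SNHG16, SNHG5, SNHG6 and SNHG22. Of the 9 pairs of neighbours in that order, 8 had a ratio of ratios whose interval includes 1. The exception was SNHG5 over SNHG6, at 2.01 (1.28 to 3.10). Over all 45 pairs, each with the higher observed ratio set over the lower, the interval excluded 1 for 29. No such share was computed for pairs of other features. GAS5 exceeded SNHG22 by a factor of 9.62 (4.14 to 24.1) and SNHG6 by a factor of 8.003 (4.91 to 12.9). The order was therefore resolved between its ends but not between most neighbours, and these comparisons are of 2 libraries, not of repeated immunoprecipitations.

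Many of the snoRNAs overlap annotated exons of their hosts, since GENCODE includes transcripts that keep introns. Of 27 snoRNA and scaRNA names annotated inside the 10 hosts, 20 lie wholly in sequence that counts as exon of the host, and this holds for 9 of the 10 hosts (GAS5 has none in that annotation). The table lists 8 of these 27 names. Across the table, 14 snoRNAs of unambiguous length lie in an exon of a listed host on the same strand. In all 14 pairs the host had at least as many reads as the snoRNA in both libraries. Most hosts had far more, such as RPL13A with 1843 IP and 5518 Input reads against 4 and 1 for SNORD35A. A host with far more reads cannot show whether reads were shared. The closest pair was TMEM107, with 12 IP and 491 Input reads, and SNORD118, with 12 and 471. Whether a read in a snoRNA was credited to both genes was not tested, and the subtractions below assume it.

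The 3 small RNAs shown each lie in an exon of their host and were listed with reads. In SNORD25 (chr11:62855564-62855632, minus) the capitals mark the box C motif TGATGA and the box D motif CTGA, in SNORA24 (chr4:118279190-118279320, plus) the ACA that ends box H/ACA RNAs, and SCARNA17 (chr18:49814133-49814276, plus) is shown without marks. The letters are those of GENCODE release 29.
SNORD25: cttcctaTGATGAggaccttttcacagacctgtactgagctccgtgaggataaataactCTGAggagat
SNORA24: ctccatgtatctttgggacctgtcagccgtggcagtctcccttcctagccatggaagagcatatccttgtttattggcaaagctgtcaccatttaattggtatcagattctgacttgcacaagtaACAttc
SCARNA17: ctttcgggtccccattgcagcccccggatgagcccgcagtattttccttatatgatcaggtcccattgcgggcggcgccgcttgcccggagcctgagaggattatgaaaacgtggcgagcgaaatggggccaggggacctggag
Of 1004 annotated snoRNA and scaRNA transcripts, 30.6% have ACA 3 bases before their end, and 22.2% have TGATGA in the first 20 and CTGA in the last 20 bases, read on the RNA strand.

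Among the listed small RNAs in exons of the 10 hosts, SCARNA17 had the largest share of its host's reads. It had 80 Input reads and 6 IP reads, against 111 and 9 for SNHG22, which is 72.1% and 66.7% of the host's reads. The length behind the SCARNA17 value was 698 bp, longer than the 144 bp of its locus, so the row may also hold reads from elsewhere. SNORA24 had 44 reads in the Input and 7 in the IP, 21.9% and 12.7% of those of SNHG8. Without them SNHG8 was 1.11-fold lower (0.796 to 1.56). In SNHG1, SNORD22 had 38 and 4 reads and SNORD25 had 2 and 5, and without both the ratio of SNHG1 was 1.33 (0.812 to 2.13). In SNHG12, SNORA61 had 7 and 6 reads and SNORA44 had 11 and 4, and without both the ratio of SNHG12 was 1.45 (0.914 to 2.27), which no longer lay above 1. The rows of SNORD22, SNORA24 and SNORA44 also rest on lengths of 251, 397 and 240 bp, more than their loci.

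As rows of their own, the small RNAs inside the hosts went both ways on few reads. SCARNA17 was 4.51-fold lower in the IP (1.98 to 12.7) and SNORD22 3.21-fold lower (1.16 to 12.4). SNORA24 was 2.13-fold lower with an interval that includes 1 (0.9503 to 5.60). SNORD25 had a ratio of 7.39 (1.21 to 77.6), from 5 IP reads and 2 Input reads, and SNORD99 one of 5.17 (1.32 to 24.1), from 7 and 4. SNORA61 had a ratio of 2.53 (0.703 to 8.80) and SNORA44 one of 1.07 (0.2496 to 3.63). SNORA71A, in an intron of SNHG17, had 5 IP reads and no Input read. Set against a limit of 3 Input reads that is 4.93-fold higher, without the counting error of the IP reads. The exact interval of the ratio, which includes this error, begins at 2.71. SNHG22 and SCARNA17 both had intervals below 1, whereas SNORD22 was below 1 and the interval of its host SNHG1 included 1. SCARNA18, looked for with these but annotated outside the spans of the 10 hosts, was 1.61-fold lower (0.534 to 6.50) on 4 and 19 reads. Of these 9 rows, 4 were past 2-fold upward and 2 downward on the pseudocount scale. All 9 rest on lengths below 1000 bp, and of the 1438 features in that band 28.0% were past 2-fold upward and 19.2% downward.

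Exon length differed among the hosts together with the ratio, a pattern seen after the values were known. This length joins exons of many annotated transcripts and is not that of a single RNA. The transcripts used above for their 3′ ends had 723 bases in GAS5 and 973 in SNHG17. Those of SNHG5, SNHG6, SNHG8 and SNHG22 had 631, 648, 672 and 1615. Whether the ratio goes with the length of the RNAs present was not tested. By exon length, the 4 shortest members, from 923 to 2794 bp (SNHG8, SNHG6, SNHG22 and SNHG5), had the 4 lowest log2 values, from -1.76 to -0.29. The 6 longest, from 3377 to 5362 bp, ran from -0.26 to 0.83. On the RPKM ratio without a pseudocount, SNHG16 at 0.799 fell just below SNHG8 at 0.809. The Spearman correlation of length with the log2 value was 0.59 over the 10 members and 0.20 over 9879 features, all from the same 2 libraries. Over the same 10 members the Input RPKM had a Spearman correlation of -0.94 with the log2 value, but the Input level is itself part of that value. The parts of length and level were not told apart.

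The 9880 features show how far length goes with the ratio in general. Features of 1000 to 2000 bp had a median log2 ratio of -0.17, and 14.2% of these were at least 2-fold lower. SNHG6, of that band, was at -1.76. Features of 2000 to 3000 bp had a median of -0.10, with SNHG5 at -0.65 and SNHG22 at -1.40. Those of 3000 to 4000 bp had a median of 0.04, with SNHG1 at 0.07, SNHG12 at 0.44 and GAS5 at 0.83. In the band from 4000 to 6000 bp the median was 0.17, with SNHG16 at -0.26, SNHG7 at 0.26 and SNHG17 at 0.75. SNHG8, at -0.29, is shorter than 1000 bp, where the median was 0.23 and the spread widest.

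**Figure D3:**
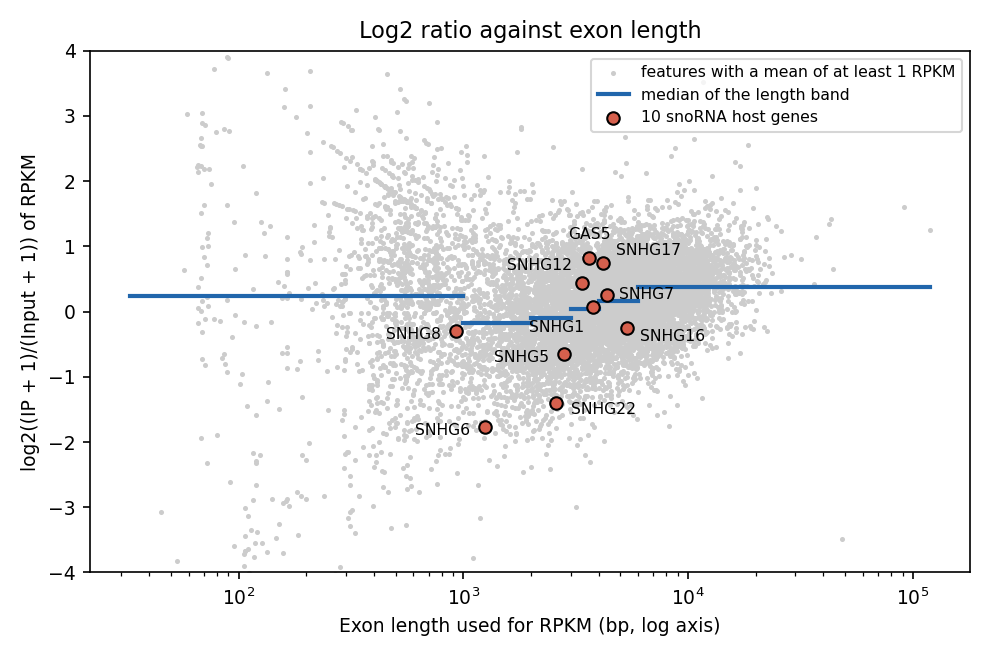
Log2 ratio (pseudocount of 1 RPKM) against the exon length used for RPKM (bp, log axis) for features past the filter of 1 RPKM (grey), with the median of each length band (lines) and the 10 hosts (filled circles). SNHG6 and SNHG22 lie furthest below the line of their band, and GAS5 and SNHG17 lie above theirs. The axis stops at a log2 ratio of 4 either way, which leaves out 52 features.

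Other noncoding hosts gave few values. Of 25 further noncoding hosts looked for, 12 had a row and 8 passed the filter. None of these 8 was past 2-fold, and their median log2 ratio was -0.38. SNHG15 was 3.21-fold lower (1.55 to 7.71) on 8 and 76 reads, within 2-fold on the pseudocount scale (-0.92), and SNHG19 was at -0.91 on 2 and 14 reads. The highest were EPB41L4A-AS1 at a ratio of 1.56 (0.832 to 2.85) and SNHG25 at 1.15 (0.406 to 2.88). SNHG3, the host of SNORA73A, had a ratio of 0.916 (0.702 to 1.18). SNHG10, below the filter, had no IP read and 26 Input reads. Set against a limit of 3 IP reads that is 2.93-fold lower, without the counting error of the Input reads. The exact interval, which includes this error, begins at 2.22-fold lower. The 213 features annotated as long noncoding RNAs with a gene name, other than clone and LINC names and with the members included, had a median of 0.34, and 45 of these passed 2-fold upward and 19 downward.

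Hosts that code for ribosomal proteins were mostly below the Input level, and other protein-coding hosts lay on both sides of it. Of 25 ribosomal protein genes that host snoRNAs, 10 were at least 2-fold lower and 0 higher, with a median log2 ratio of -0.79. They ran from RPS12 at 6.32-fold lower (5.40 to 7.44) and RPL17 at 4.06-fold lower (3.44 to 4.81) to RPS3 at a ratio of 1.05 (0.957 to 1.15) and RPL3 at 1.27 (1.17 to 1.39). Of 29 other protein-coding hosts, 2 passed 2-fold upward and 2 downward, and the median was 0.25. HSPA9, for a mitochondrial chaperone, had a ratio of 7.83 (7.39 to 8.30) and PRRC2A one of 2.96 (2.59 to 3.39), while TPT1 was 3.11-fold lower (2.84 to 3.41) and EEF1B2, for a translation elongation factor subunit, 2.22-fold lower (1.98 to 2.48). The median of the 10 noncoding hosts, -0.10, lay between these medians. It was -0.35 with trimmed mean scaling and 0.06 without the reads of small RNAs in host exons. Such reads could be taken from SNHG1, SNHG8, SNHG12 and SNHG22 only. The difference between these lists was not tested.

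The mRNAs of the proteins that bind mature snoRNAs were also read. Of 8 genes for core snoRNP proteins, some of which (NOP56, NOP58 and DKC1) are also among the protein-coding hosts, 3 were at least 2-fold lower and 0 higher, with a median log2 ratio of -0.41. The box H/ACA proteins GAR1 and NHP2 were 3.59-fold lower (1.74 to 8.59) and 2.22-fold lower (1.70 to 2.94). DKC1, the box H/ACA pseudouridine synthase, had a ratio of 1.57 (1.41 to 1.74), and SNU13, a protein of box C/D particles, one of 1.26 (0.922 to 1.70).

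**Figure D4:**
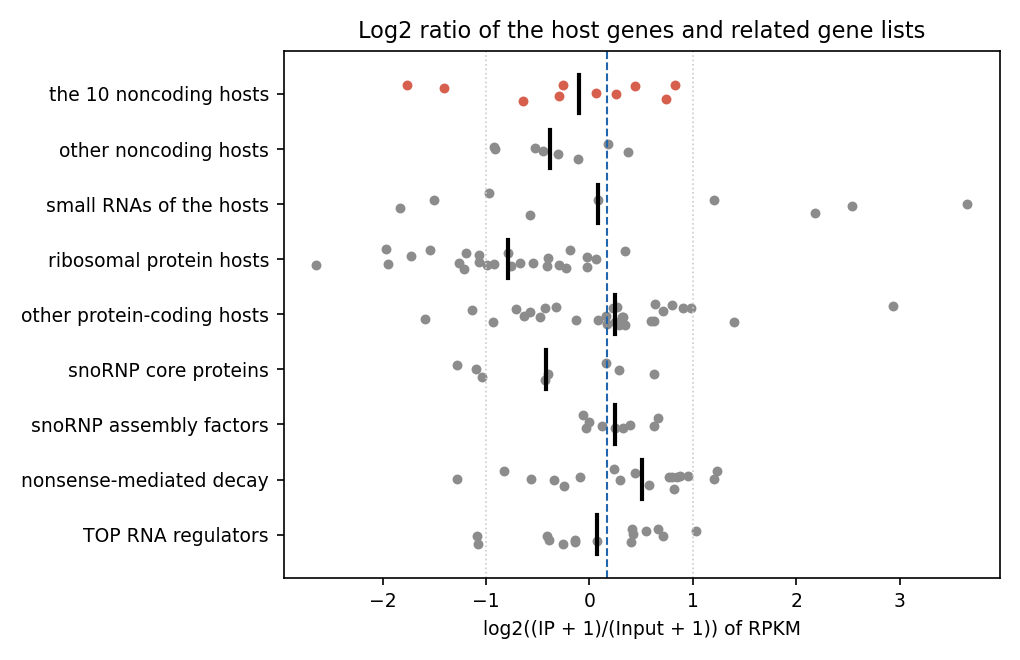
Log2 ratio (pseudocount of 1 RPKM) of each gene past the filter in the 10 noncoding hosts (top row) and in related lists, with the median of each list as a black bar, the median of the 9880 features as a dashed line and 2-fold as dotted lines. The 10 hosts run from -1.76 to 0.83. Their bar, at -0.10, lies between those of the ribosomal protein hosts (-0.79) and the other protein-coding hosts (0.25).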

How the data were processed

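RNA immunoprecipitation sequencing was done on 1 IP and 1 Input library. The authors deposited RPKM values per library and, for each feature, the log2 of the fold between both. Per the submitters' processing notes, FastQC 0.12.0 and build hg38 were used. Aligner, counter, annotation and strandedness are not stated in those notes or the labels, so reads of overlapping genes on opposite strands are not told apart. The protocols in the labels describe fragmentation and random hexamer priming.

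The deposited fold changes of features listed at 0 in 1 library were fitted as whole reads plus a small constant. Its mean was set in advance at 0.125 reads, and its split between the libraries was searched. Solving this together with the RPKM values gave whole reads (tolerance 0.01) and a length for 14913 of 14914 features. The length equalled the exon union of GENCODE release 29 for 8 of the 10 members (not SNHG5 and SNHG12). The recovery was tested on simulated data made with the same mean constant, so that value was not itself tested. The main measure was log2 of the RPKM ratio with a pseudocount of 1 RPKM, for features averaging 1 RPKM or more, read at 2-fold. Intervals are conditional Clopper-Pearson intervals, and for ratios of ratios conditional odds ratio intervals (scipy 1.17.1). A median of 44 IP reads and 116 Input reads stood behind a feature past the filter.

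The members and lists were chosen with earlier results of these data known. All members, the listed small RNAs inside them and the 2 highest and 2 lowest of each list past the filter were to be named. SNHG3, SNHG10 and the genes on the other strand were named outside that rule, after their values were seen. Alternatives were other pseudocounts, filters, thresholds and scalings, and, chosen after seeing the data, hosts without their small RNA reads. Sequences downstream of 3′ ends were not used here.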

Additional observations from a re-analysis of the deposited data

How the results depend on the processing

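The 2 libraries carry no replicates, so no library could be left out. No paired analysis was possible because each group has 1 library. The number of members at least 2-fold higher, 0, became 2 with a pseudocount of 0.1 RPKM and 2 at a threshold of 1.5-fold (GAS5 and SNHG17 in both), and 1 (GAS5) when depth was counted without mitochondrially encoded genes, which raises all values against the pseudocount. The number at least 2-fold lower, 2, became 1 with a pseudocount of 5 RPKM, 1 with a filter of 5 RPKM and 1 without the reads of small RNAs in host exons, SNHG6 each time, and 3 at 1.5-fold, with SNHG5 added. The filter of 5 RPKM left 2 members, whose median log2 ratio was -1.03. The median of the members, -0.10, was -0.35 with trimmed mean scaling and 0.06 without the small RNA reads. Those reads were taken only from SNHG1, SNHG8, SNHG12 and SNHG22, since the other hosts had no listed small RNA in their exons. The log2 value of SNHG6 was -2.09 with trimmed mean scaling, which moved the median of all features from 0.17 to -0.07. Under the 7 alternatives that give a log2 ratio for every member, 9 members kept the sign of their log2 ratio, and SNHG1 did not (-0.18 to 0.27). Another pseudocount or no filter cannot change a sign, and the small RNA reads touch only the hosts named above. Depth without mitochondrially encoded genes shifted ratios by 0.008 log2, trimmed mean scaling by -0.33 and median centring by -0.17. The intervals, and the sum without SNHG6, were not recomputed under other scalings. Low counts limit most members: 9 of the 10 had at most 60 IP reads.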

Other observations

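Genes for the pathways that handle these host RNAs were measured too. Of 18 nonsense-mediated decay factors past the filter, 2 passed 2-fold upward and 1 downward, and their median log2 ratio was 0.51, beside 0.17 over the 9880 features. The kinase gene SMG1 had a ratio of 3.32 (2.87 to 3.84) and the helicase gene UPF1 one of 2.78 (2.29 to 3.38), while MAGOHB and MAGOH, for subunits of the exon junction complex, were 2.69-fold lower (2.14 to 3.41) and 1.85-fold lower (1.35 to 2.57). Among 15 regulators of TOP RNA translation, LARP1, which binds the TOP start, had a ratio of 2.10 (1.94 to 2.28) and RPTOR one of 2.43 (1.70 to 3.47), within 2-fold on the pseudocount scale, and EIF4EBP1 and CNBP were 2.16-fold lower (1.77 to 2.64) and 2.13-fold lower (1.86 to 2.44). Of 9 snoRNP assembly factors past the filter, 0 were past 2-fold, from PIH1D1 at a ratio of 0.951 (0.733 to 1.22) and RUVBL2 at 0.978 (0.849 to 1.12) to NUFIP1 at 1.97 (1.18 to 3.26) and TGS1, the cap hypermethylase, at 1.72 (1.31 to 2.26).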
